A study of Mus musculus with 4 samples.

Results

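Id1, Id2, Id3, Id4, Msx1 and Msx2 are the genes described here, as a group of BMP target genes in mouse forelimb buds. Their accessible regions were all regions of the deposited ATAC-seq lists whose nearest transcription start of a protein-coding gene belonged to 1 of these 6 genes, or whose center lay within 2.5 kb of such a start. At E9.5 this rule gave 37 of the 42613 regions, and from the E10.5 list it gave 33 of the 46765, for 6 of 22238 protein-coding gene symbols. The 2.5 kb clause added 0 regions, and 0 regions counted for 2 of the genes. ATAC-seq uses a transposase that inserts sequencing adapters where chromatin is open. Both stages were wild-type embryos of the outbred NMRI strain, with 2 biological replicates each that the authors combined into 1 list per stage. An E9.5 replicate was the forelimb bud pair of 1 embryo with the adjoining trunk (the protocol gives E9.75). An E10.5 replicate was a forelimb bud pair without trunk, although the tissue label also names hindlimb buds. Stage and trunk tissue therefore cannot be told apart in any comparison below. A list from whole tissue also cannot tell fewer cells with an open region from less opening per cell.

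BMP ligands bind receptor kinases that phosphorylate SMAD1, SMAD5 and SMAD9. These join SMAD4 and bind GC-rich sites and the shorter SMAD box in the DNA of their target genes. ID proteins are helix-loop-helix proteins without a basic domain, which capture E proteins and keep them off their E-box sites. MSX proteins are homeodomain repressors, and Msx1 and Msx2 are expressed in the mesenchyme and ectoderm of limb buds under the influence of BMP signals. Id genes and Msx2 are widely used as transcriptional sensors of the pathway.

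The sequence shared by all 6 genes was a composite of the GC-rich site GGCGCC followed after 5 bases by GTCT, a form of BMP response element known from BMP targets that include Id genes. Since this form was described from such genes, its presence there is not independent evidence. The accessible regions of the 6 genes held 9 matches at E9.5. They are printed with 30 bases on each side, 5′ to 3′ in the orientation of the element and with its 2 parts in capitals, from the NCBIM37 assembly, which is the mm9 build of the lists. Distances are from the transcription start that most protein-coding transcripts of the gene share.
Id1 at +3.23 kb, chr2:152565177-152565251, plus strand: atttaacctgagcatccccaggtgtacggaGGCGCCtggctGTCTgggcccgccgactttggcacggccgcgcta
Id2 at -2.77 kb, chr12:25783689-25783763, minus strand: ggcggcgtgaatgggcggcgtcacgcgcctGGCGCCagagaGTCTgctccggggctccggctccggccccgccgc
Id2 at +3.04 kb, chr12:25777879-25777953, minus strand: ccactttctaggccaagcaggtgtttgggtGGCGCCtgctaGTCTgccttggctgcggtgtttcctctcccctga
Id3 at -2.95 kb, chr4:135696425-135696499, plus strand: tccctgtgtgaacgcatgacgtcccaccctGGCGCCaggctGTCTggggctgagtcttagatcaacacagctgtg
Id3 at +1.30 kb, chr4:135700678-135700752, plus strand: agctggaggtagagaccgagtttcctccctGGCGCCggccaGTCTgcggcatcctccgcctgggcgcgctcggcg
Id3 at +4.49 kb, chr4:135703866-135703940, plus strand: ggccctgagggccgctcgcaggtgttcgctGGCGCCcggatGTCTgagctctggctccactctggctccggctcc
Id4 at +1.47 kb, chr13:48358229-48358303, plus strand: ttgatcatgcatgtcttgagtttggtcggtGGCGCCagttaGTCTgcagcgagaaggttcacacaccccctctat
Msx1 at +0.80 kb, chr5:38214983-38215057, minus strand: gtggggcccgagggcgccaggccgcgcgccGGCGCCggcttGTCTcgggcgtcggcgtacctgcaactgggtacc
Msx2 at -3.30 kb, chr13:53571710-53571784, minus strand: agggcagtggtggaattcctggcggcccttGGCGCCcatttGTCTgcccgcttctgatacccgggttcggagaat

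All 9 matches lay within 5 kb of the start, from 802 bp at Msx1 to 4491 bp at Id3. Of these, 6 were intergenic and 3 lay in introns, of Id3, Id4 and Msx1. Upstream of the gene were 3 of them and downstream of the start 6. Id3 had 3 matches, Id2 had 2 and each other gene had 1. All 9 were oriented along the transcribed strand of their gene, whereas 55 of the 99 matches in the other E9.5 regions (55.6%, 95% Wilson interval 45.7 to 65.0%) lay on the strand of the nearest gene. Matches in genes of the same family may not be independent of each other, and no test of orientation was made. The 5 bases between the 2 parts were different in each of the 9 matches. A G followed the element in 8 of 9 matches, which completes the SMAD box GTCTG on that strand, against 44 of all 108 matches of the list (40.7%). This letter was examined after the member sequences had been seen.

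At E9.5 the composite was found in 8 of the 37 regions, against 0.246% of all regions of the list. At E10.5 it was found in 8 of 33, against 0.197%. Per accessible kb, the 6 genes held 0.125 matches at E9.5 and the whole list 0.00189. For E10.5 these values were 0.151 and 0.00168. Among the 16576 genes with an E9.5 region, 109 (0.658%) had a match in their regions, and among the 2671 genes with as much accessible sequence as the 6 genes (5439 to 17834 bp in all) the share was 1.61%. Only 4 genes had 2 or more matches in either list, namely Id2, Id3, B3galt6 and Sdf4. A region within 2.5 kb of the starts of 2 genes counted for both, and whether B3galt6 and Sdf4 hold the same matches was not examined. At E10.5, 5 of the 6 genes retained a match in an accessible region. The exception was Id4, where the match at +1.47 kb lay inside the start region at E9.5 and beyond its narrower E10.5 counterpart. None of the 10 E9.5-specific regions of the 6 genes, all of them distal, held the composite. The share of all distal E9.5 regions with it was 0.110%, so its absence from 10 regions says little.

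The spacing was varied as a comparison chosen after the data were seen. The 5-base form was itself described from BMP targets that include Id genes. Its predominance over other spacings in these genes is therefore not independent evidence. With gaps of 0 to 15 bases and GTCT in either orientation, 31 other arrangements of the same 2 parts can be made. Each of them had 0 or 1 match in the E9.5 regions of the 6 genes, with 5 matches in all. In the whole E9.5 list the other arrangements had between 85 and 152 matches each, on either side of the 108 of the composite. The bars of matches by gap length show this for E9.5. The 300 bases from 250 before to 50 after the start that most protein-coding transcripts share held no composite match in any of the 6 genes. Of all genes, 0.0585% have one there. Other annotated starts, such as a further start of Id3 downstream, were not searched in this way.

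**Figure D1:**
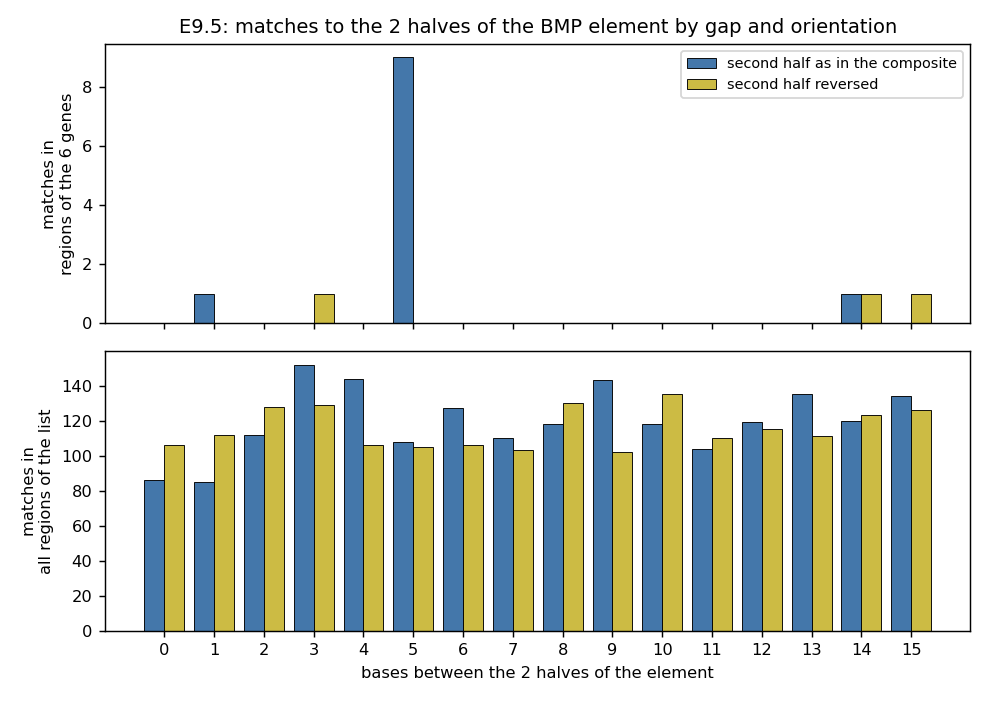
Number of matches in the E9.5 list (vertical axes) to GGCGCC and GTCT by the number of bases between them (horizontal axis), with the second part oriented as in the composite (blue) or reversed (yellow), in the regions of the 6 genes (upper plot) and in all regions (lower plot). With 5 bases the regions of the 6 genes hold 9 matches and with every other arrangement 0 or 1, whereas all regions hold 85 to 152 matches in each of the other arrangements. The 5-base form was described from BMP targets that include Id genes.

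The bases just before the start are printed for Id1 and Id2 because their start regions were among the highest-scoring and widest of the E9.5 list. The 250 bases end at the base before the start. Capitals mark 4 kinds of site searched on both strands: the SP site GGGCGG, the TATA box TATAAA, the box CCAAT and the GC-rich site GGCGCC.
Id1, chr2:152561737-152561986, plus strand: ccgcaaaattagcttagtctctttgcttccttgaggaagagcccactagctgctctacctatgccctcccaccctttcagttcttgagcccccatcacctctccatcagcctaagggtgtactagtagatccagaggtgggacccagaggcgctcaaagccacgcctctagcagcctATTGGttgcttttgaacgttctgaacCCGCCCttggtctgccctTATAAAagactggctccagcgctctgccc
Id2, chr12:25780958-25781207, minus strand: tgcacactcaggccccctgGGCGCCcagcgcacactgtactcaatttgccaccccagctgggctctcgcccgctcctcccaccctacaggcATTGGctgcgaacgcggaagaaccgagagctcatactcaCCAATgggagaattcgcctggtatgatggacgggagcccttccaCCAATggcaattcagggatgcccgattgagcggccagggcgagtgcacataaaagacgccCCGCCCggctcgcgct

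The stretch before Id1 held TATAAA at position -29 from the start, an SP site at -47 and a CCAAT box at -73, counted to the first base of each match. Before Id2 there were 3 CCAAT boxes, an SP site and GGCGCC, and no TATAAA. In the windows of 300 bases around the start, CCAAT was found in 4 of the 6 genes against 37.9% of all genes, and TATAAA in 2 of 6 (Id1 and Msx2) against 13.4%. GGCGCC was found there in 2 of 6 (Id2 and Id3) against 14.7%. The TATAAA matches of Msx2 overlapped each other at -114 and -112, farther from the start than the match of Id1 at -29. The GC content of the 250 bases ranged from 41.6% at Msx2 to 68.4% at Msx1, and the median of all genes was 54.4%.

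All 6 genes had an accessible region within 2.5 kb of the start at both stages. Of all protein-coding genes, 65.2% had such a region in the E9.5 list and 62.6% in the E10.5 list. Shared regions are those with an overlap of 1 bp or more with any region of the other stage, and all others are stage-specific. Of the E9.5 regions of the 6 genes, 10 of 37 were stage-specific (27.0%, 95% Wilson interval 15.4 to 43.0%), against 29.9% of all E9.5 regions. Of the E10.5 regions, 1 of 33 was stage-specific (3.03%, 0.537 to 15.3%), against 35.0% of all E10.5 regions. The E9.5 share thus matched its background within counting error, and the E10.5 interval lay below its background. These intervals cover counting error only and treat regions as independent. No value per replicate was analyzed, so none of these differences has a replicate error or a test.

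The start regions were shared without exception. At E9.5, 0 of 6 were stage-specific (3 counts would give 50%), against 13.1% of all promoter-proximal regions, and at E10.5, 0 of 8 (37.5%), against 5.31%. The stage-specific regions were therefore all distal, meaning farther than 2.5 kb from a start. Among distal regions, 10 of 31 were stage-specific at E9.5 (32.3%, 18.6 to 49.9%), against 40.3% of all distal regions. At E10.5, 1 of 25 was stage-specific (95% interval 0.710 to 19.5%), against 49.6%.

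Base composition and distance to the start differed between the distal regions of the 6 genes and those of the whole list. The median GC content of those of the 6 genes was 52.4% in the E9.5 list and 53.6% in the E10.5 list, against 48.2% and 45.2% for all distal regions and 42.5% for all E10.5-specific distal regions. Among E10.5 distal regions with a GC content of at least 50%, 1 of 22 regions of the 6 genes was stage-specific (4.55%, 0.807 to 21.8%), against 17.8% of all such regions, which lies inside the interval. Among those within 10 kb of the start, the counts were 0 of 14 (3 counts would give 21.4%) against 33.6%. With both restrictions together the share of all E10.5 distal regions fell to 11.4%. The part of base composition in the low E10.5 share of the 6 genes was not tested beyond these values.

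**Figure D2:**
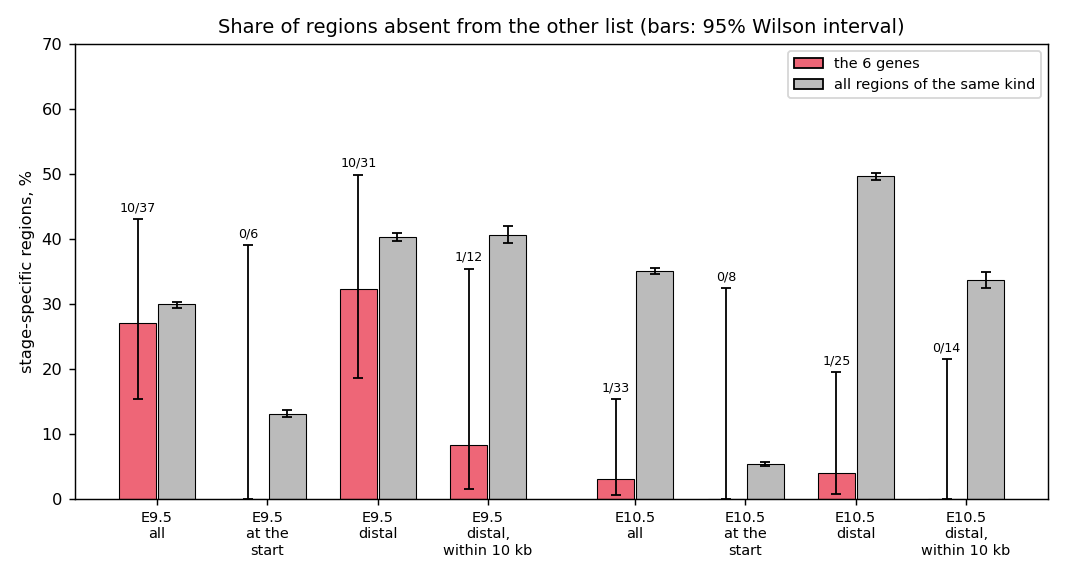
Stage-specific regions as a percentage of all regions of a kind (vertical axis) for the 6 genes (red, with counts) and for the whole list (gray), by stage and class (horizontal axis). Error bars are 95% Wilson intervals. For the 6 genes it is 27.0% in the E9.5 list and 3.03% in the E10.5 list, against 29.9% and 35.0% of all regions.

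The overlap rule mattered for the E10.5 share. When a shared region had to be covered by at least 50% in both directions, 10 of the 33 E10.5 regions counted as stage-specific (30.3%), against 39.3% of all E10.5 regions. Of these 10, 8 were the pieces into which the wide start regions of Id1 (2), Id2 (4) and Id3 (2) were divided at E10.5, 1 lay at Msx1 and 1 was the Id4 region found in the E10.5 list alone. Under the 1 bp rule, a piece of a divided region counts as shared.

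Each score is 10 times the negative log10 of the best p-value that MACS, the region caller, gave for the region in a replicate. It grows with sequencing depth and reaches a limit at about 3100. Depth is unknown here, so regions are placed by their score percentile within the list of their own stage. The median score was 260.35 in the E9.5 list and 241.31 in the E10.5 list, and 1.98% and 0.962% of regions were at the limit. Promoter-proximal regions scored higher than distal ones, with medians of 898.86 and 176.99 at E9.5 and 638.29 and 183.30 at E10.5. Each start region of the 6 genes stood lower among promoter-proximal regions than in its whole list.

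The starts of Id1, Id2 and Id3 carried the widest regions of the group. At E9.5 each was a single region at the limit of the score, 6806 bp wide at Id1, 7495 bp at Id2 and 7310 bp at Id3, which is the 99.9 percentile of width for each. At E10.5 these regions were divided into 2, 4 and 2 regions. The largest gaps between the pieces were 81 bp at Id1, 121 bp at Id2 and 954 bp at Id3, and the pieces covered 86.4%, 91.1% and 79.4% of the E9.5 region. Division was common among regions of this size, since 31 of the 58 shared promoter-proximal E9.5 regions at least 6.0 kb wide (53.4%) lay over 2 or more E10.5 regions, compared with 3.21% of shared promoter-proximal regions of any width. The width of 6.0 kb was chosen after the data were seen. The start regions of Id4, Msx1 and Msx2 were 2919, 2354 and 1374 bp wide at E9.5.

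**Figure D3:**
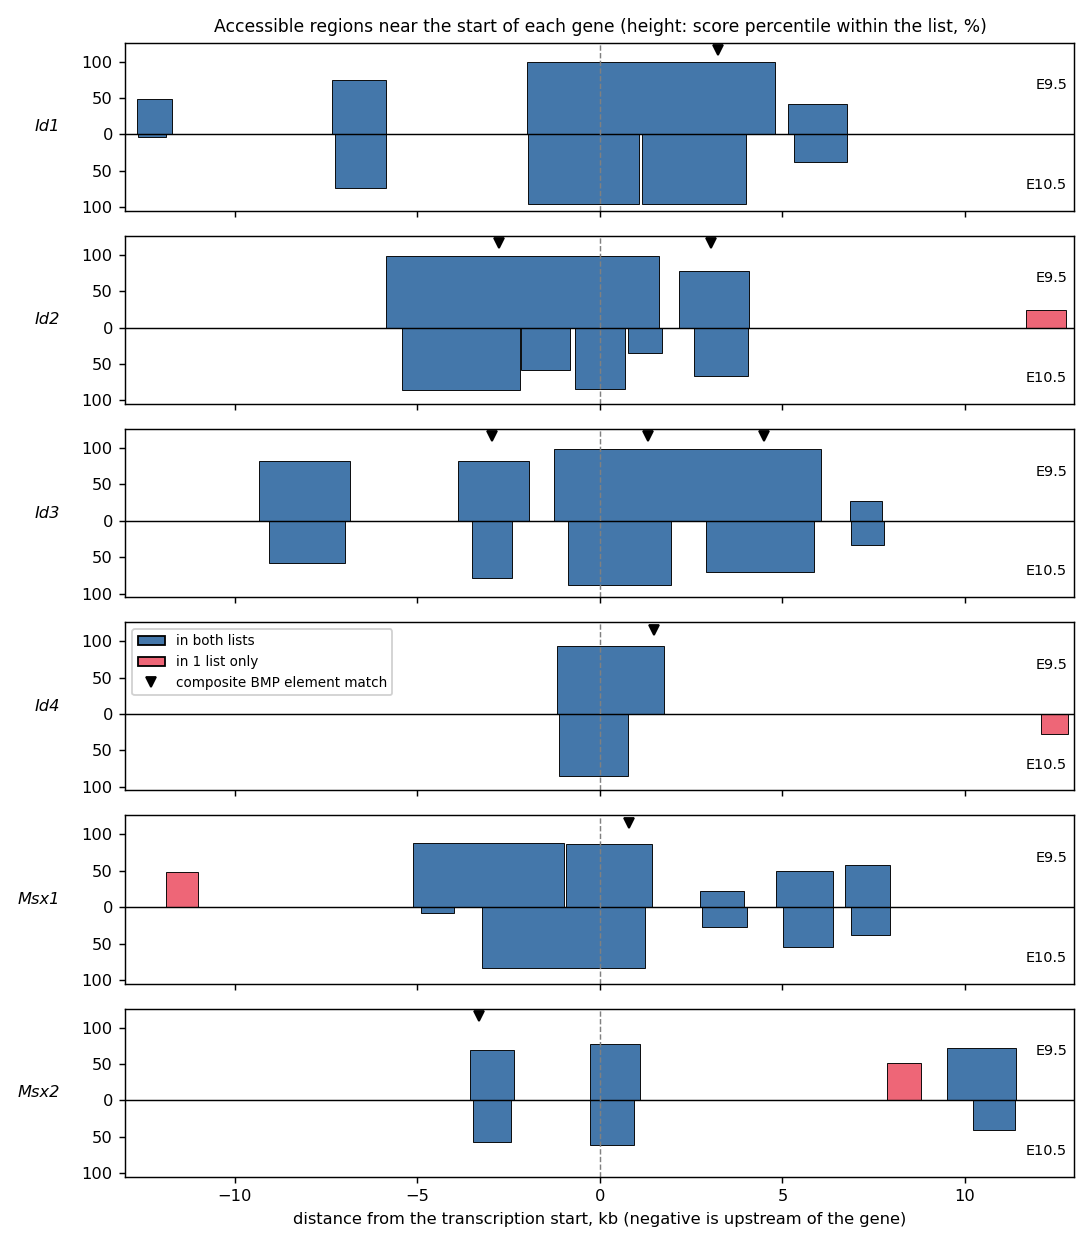
Accessible regions within 13 kb of the start of each gene by distance from the start in kb (horizontal axis), with E9.5 above and E10.5 below the line of each plot and the score percentile of the region within its list as height (vertical axis, %). Blue regions overlap the other list, red regions do not, and triangles mark the 9 composite matches. The wide E9.5 regions at the starts of Id1, Id2 and Id3 are divided into 2, 4 and 2 regions at E10.5.

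Id1 encodes an inhibitor of E proteins and is a well-known target of BMP signals. Its start lies on chromosome 2 at position 152561987, and the nearest starts of other genes are 44.4 kb upstream (H13) and 17.9 kb downstream (Cox4i2). It had 5 regions in each list. The E9.5 start region at chr2:152559984-152566789 scored 3100, the limit. It was replaced at E10.5 by a region centered at -0.45 kb from the start, with a score of 1920.44 (percentile 95.6), and a distal one at +2.57 kb with a score of 1863.55 (percentile 95.3). The second of these holds the composite match, downstream of the gene. The highest-scoring other distal region lay at -6.60 kb and was about as prominent in both lists, with scores of 747.07 at E9.5 (percentile 74.2) and 541.39 at E10.5 (percentile 73.4). The region at -12.20 kb dropped from percentile 48.0 to 3.6, with scores of 244.50 and 85.04. The region at +5.96 kb scored 206.93 and 175.55. The only stage-specific region of Id1 was found at E9.5, at -18.15 kb, chr2:152543277-152544389, with a score of 286.21.

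Id2 encodes the ID protein best known for lineage decisions of blood and mesenchymal cells. Its start lies on chromosome 12 at position 25780957 on the minus strand, and the next gene upstream, Rnf144a, starts 1319 kb away. The E9.5 list held 8 and the E10.5 list 7 of its regions, and 4 of the 8 were E9.5-specific, the largest number in the group. The 4 lay at -67.71, -33.30, -28.87 and +12.22 kb with scores of 90.31, 174.16, 670.27 and 138.23. The one at -28.87 kb, chr12:25808973-25810674, was the highest-scoring stage-specific region of the 6 genes, at percentile 91.8 of distal E9.5 regions. The start region scored 3100 at E9.5. Of its 4 pieces at E10.5, the one over the start scored 919.53 and the one at -3.82 kb, which holds a composite match, scored 957.72. The other pieces, at -1.48 and +1.23 kb, scored 301.37 and 169.15. Just downstream of the gene, the distal region at +3.13 kb with the other composite match went from a score of 873.19 (percentile 77.2) to 403.00 (percentile 65.8). Far upstream, regions at -379.36 and -438.32 kb were present in both lists. The first scored 329.10 and 168.33, and the second scored 349.21 and 266.67. Their assignment to Id2 rests on distance alone.

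Id3 encodes a close relative of ID1, and its start lies on chromosome 4 at position 135699412. The E9.5 list held 6 regions and the E10.5 list 5. The start region at chr4:135698160-135705469 scored 3100 at E9.5. At E10.5 the piece over the start scored 1093.55 (percentile 87.7) and the piece at +4.39 kb scored 482.83 (percentile 70.5), and each of them holds a composite match. The distal region nearest the start, at -2.92 kb, holds the remaining match and scored 1146.44 at E9.5 (percentile 82.6) and 662.41 at E10.5 (percentile 77.9). A region at -8.09 kb scored nearly as high at E9.5, 1143.59, and dropped to percentile 57.5 at E10.5 with a score of 300.14. At +7.30 kb the scores were 147.62 and 162.73. The E9.5-specific regions lay at -38.52 kb, with a score of 238.49, and at -23.25 kb, with a score of 119.14.

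Id4, the most divergent member of the Id family, starts on chromosome 13 at position 48356796. It had 3 regions in each list, fewer than any other Id gene. The start region scored 2022.30 at E9.5 (percentile 93.1) and 927.88 at E10.5 (percentile 84.7), and its E10.5 outline covered 64.7% of the E9.5 one. Among promoter-proximal regions it stood at percentiles 83.2 and 63.3. The distal region at -33.52 kb, in an intron of the lincRNA A330033J07Rik, scored 1043.46 and 900.54 and stood at percentiles 80.7 and 84.1. At E9.5 alone there was a region at -102.17 kb with a score of 278.70. The only E10.5-specific region of the 6 genes was found at Id4, at chr13:48368889-48369617, 12.46 kb downstream, in an exon of the lincRNA A330048O09Rik. The score of 145.27 placed it at percentile 36.3 of distal E10.5 regions.

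Msx1, which encodes a homeodomain repressor of limb, tooth and craniofacial mesenchyme, had the most regions, 11 in the E9.5 and 10 in the E10.5 list. Its start lies on chromosome 5 at position 38215822 on the minus strand. At E9.5 a start region with a score of 1410.29 and a distal region at -3.05 kb with a score of 1525.39, 4124 bp wide, lay next to each other. At E10.5 a single region of 4468 bp with a score of 898.29 lay over both, and a small one at -4.46 kb with a score of 100.79 overlapped the upstream part. The start region, which holds the composite match in the intron, stood at percentile 86.7 at E9.5 and 84.1 at E10.5. Among promoter-proximal regions its percentiles were 68.2 and 62.1. Downstream of the start, regions at +3.35, +5.60 and +7.33 kb were shared. In the order E9.5 and E10.5, the first scored 131.12 and 141.27, the next 255.58 and 276.98, and the farthest 338.32 and 182.24. The only stage-specific region lay at -11.45 kb in the E9.5 list, with a score of 245.17. The region at -27.02 kb dropped from a score of 333.58 to 84.43 and from percentile 57.0 to 3.5.

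A group of 4 Msx1 regions between -69.23 and -93.65 kb went the other way. They were grouped after their values were seen. All 4 were shared and stood at a higher percentile at E10.5. At -69.23 kb the scores were 804.09 and 1085.28 (percentiles 75.5 and 87.6), and at -71.02 kb they were 705.07 and 852.80 (73.1 and 83.0). At -77.49 kb they were 157.10 and 209.84 (30.6 and 44.6). The region at -93.65 kb, chr5:38308996-38309948, rose from a score of 162.84 to 712.18 and from percentile 32.0 to 79.4. It was the only one of the 27 shared E9.5 regions of the 6 genes whose percentile was higher by at least 20 points. Of all shared distal E9.5 regions, 24.5% were higher by at least 20 points and 38.7% by at least 10. Their median difference was 4.0, with an upper quartile of 19.5. The rises at -69.23, -71.02 and -77.49 kb lay below that quartile and were thus common among distal regions. None of the 4 regions of this group holds the composite, which is present in 0.110% of all distal E9.5 regions. Stx18, the next gene upstream, starts 214 kb from Msx1, and the assignment of the 4 regions to Msx1 rests on distance.

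Msx2, which encodes the related repressor best known from skull and limb development, had 4 regions in the E9.5 list and 3 in the E10.5 list. Its start lies on chromosome 13 at position 53568443 on the minus strand. Its start region scored lowest of the 6 at E9.5, with 849.75 (percentile 76.7) and 344.45 at E10.5 (percentile 61.6). Among promoter-proximal regions it stood at percentiles 47.9 and 31.3, below the median in both lists. The distal region at -2.96 kb, chr13:53570787-53572014, holds the composite match and scored 596.97 (percentile 69.8) and 292.50 (percentile 56.6). A downstream region at +10.46 kb scored 681.27 and 189.34 and moved from percentile 72.3 to 40.4. The E9.5-specific region lay at +8.33 kb with a score of 271.46.

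**Figure D4:**
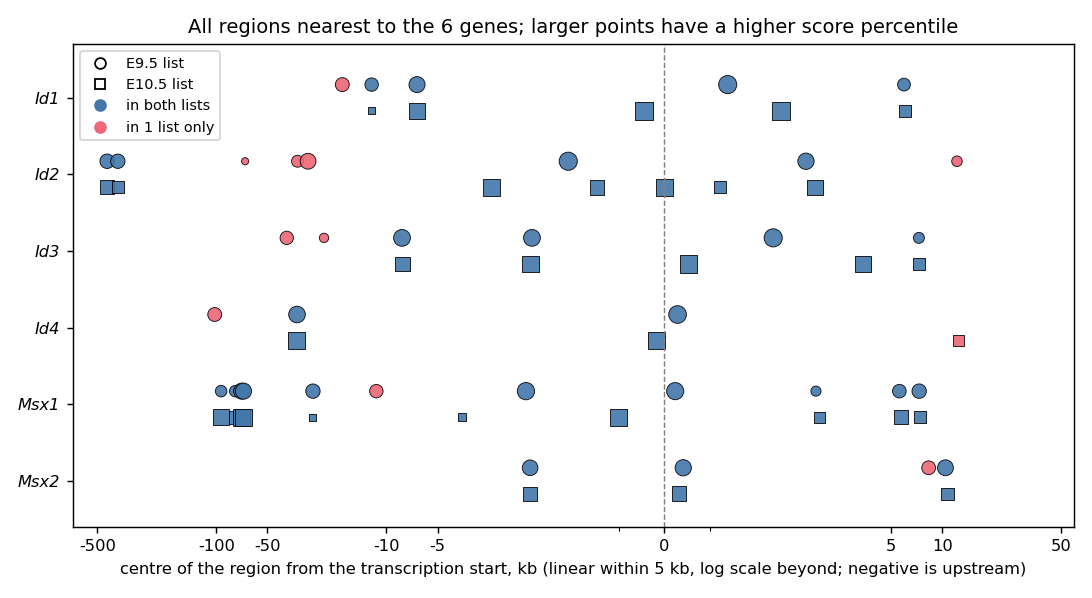
Centers of all regions of the 6 genes by distance from the start in kb (horizontal axis, linear within 5 kb and on a log scale beyond), with 1 line of points per list for each gene (vertical axis, circles E9.5, squares E10.5) and point size growing with the score percentile. Red points are regions found in 1 list only, of which 10 are E9.5 and 1 is an E10.5 region, and the farthest regions are those of Id2 near -379.36 and -438.32 kb.

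The 10 E9.5-specific regions were spread over all 6 genes. They lay 8.33 to 102.17 kb from the start, 8 of them upstream, and their scores ranged from 90.31 to 670.27. Of the 10, 6 stood above the median of distal E9.5 regions. Within 10 kb of the start, 1 of 12 distal regions was E9.5-specific (8.33%, 1.49 to 35.4%), against 40.6% of all such regions, and farther out 9 of 19 were (47.4%, 27.3 to 68.3%), against 40.2%. Id1, Id2, Id3 and Msx1 had at least 5 regions in both lists. All 4 of them had E9.5-specific and no E10.5-specific regions, a combination found in 184 of the 1793 genes with at least 5 regions in both lists (10.3%). This grouping was made after the counts were seen and rests on the 1 bp rule. Under the reciprocal overlap of 50% all 4 genes had E10.5-specific regions, namely 2 at Id1, 4 at Id2, 2 at Id3 and 1 at Msx1. With the higher-scoring 50% of each list Id3 had 0 E9.5-specific and Msx1 had 2 E10.5-specific regions, and with starts of genes of all types Id3 had 0 E9.5-specific regions.

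Most shared regions of the 6 genes stood lower in the E10.5 list than in the E9.5 list. Taking the best-scoring E10.5 partner of each of the 27 shared E9.5 regions, 19 had a lower and 8 a higher percentile at E10.5, with a median difference of -4.7 percentile points, whereas the median of all 29883 shared E9.5 regions was 0.1 and 49.7% of them were lower. At the start all 6 were lower, with differences from -15.1 to -2.7 points, against a median of -1.5 for all shared promoter-proximal regions, of which 58.4% were lower. For Id1, Id2 and Id3 the E9.5 value was at the limit of the score and was set beside the best of the divided E10.5 regions, so these 3 could hardly have been higher. At Id2 this best region was the distal piece at -3.82 kb. Its piece over the start differed from the E9.5 region by -14.3 points, and those at -1.48 and +1.23 kb by -41.2 and -63.3. Against its best-scoring partner, no E9.5 start region moved by 20 points or more, as 11.1% of shared promoter-proximal regions did downward and 3.13% upward. Of the 21 shared distal regions, 5 were lower by at least 20 points, against 14.9% of all shared distal regions, and 1 was higher, against 24.5%. The 5 lay at Id1 (-12.20 kb), Id2 (-379.36 kb), Id3 (-8.09 kb), Msx1 (-27.02 kb) and Msx2 (+10.46 kb). The median difference was -4.6 for the distal regions of the 6 genes, 13 of which were lower, and 4.0 for all shared distal regions, of which 41.8% were lower.

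By gene, all shared regions of Id1 (4 of 4), Id2 (4 of 4) and Msx2 (3 of 3) were lower at E10.5, and those of Id3 were lower in 3 of 4. Id4 was divided, with 1 lower and 1 higher. Msx1 had 4 lower and 6 higher, the latter including its 4 far upstream regions. When percentiles were taken among shared regions only, the median difference was -7.1 for the 6 genes and -0.2 for all shared regions.

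**Figure D5:**
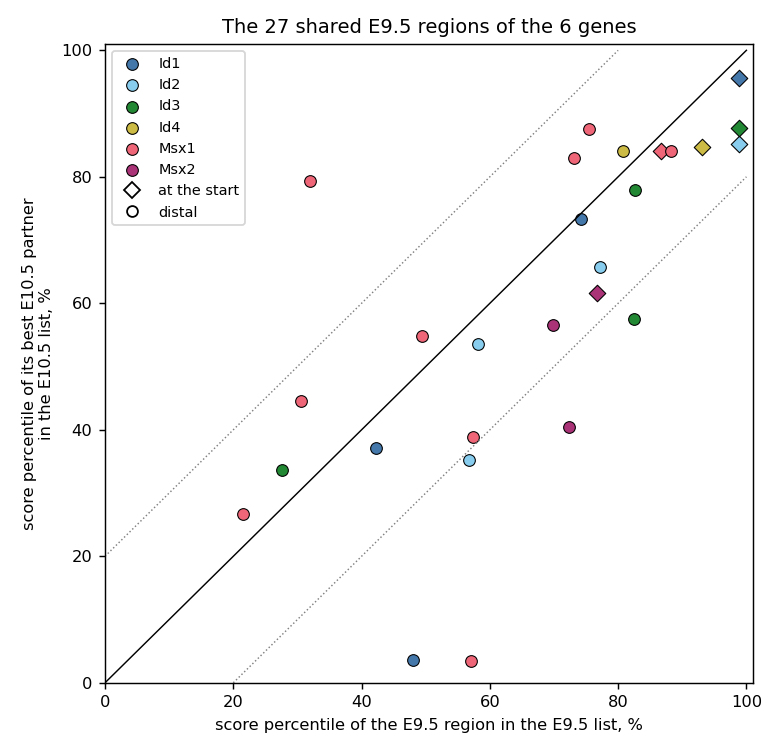
Score percentile of each of the 27 shared E9.5 regions of the 6 genes in the E9.5 list (horizontal axis, %) against that of its best-scoring partner in the E10.5 list (vertical axis, %), colored by gene, with diamonds for regions at the start and circles for distal regions. The solid line marks equal percentiles and the dotted lines a difference of 20 points, beyond which 5 regions lie below and 1 region of Msx1 lies above.

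Less sequence was accessible near the starts at E10.5. Within 10 kb on each side of the start, Id1 had 9.87 kb in regions at E9.5 and 8.71 kb at E10.5, Id2 9.43 and 8.37 kb, and Id3 12.6 and 9.88 kb. Msx1 had 10495 and 9011 bp, Msx2 4.04 and 2.25 kb, and Id4 2.92 and 1.89 kb. The ratio of E10.5 to E9.5 ranged from 0.557 at Msx2 to 0.888 at Id2, and all 6 ratios were below the median of 0.901 over the 14726 genes covered in both lists. Those of Id1, Id2, Id3 and Msx1 nevertheless lay within its quartiles of 0.741 and 1, and those of Id4 (0.647) and Msx2 below them. Since regions were called separately in each list, covered length depends on depth as well as on accessibility.

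How densely the regions were packed differed widely among the 6 genes. The stretch in which the starts of a gene are the nearest protein-coding starts spans 31.2 kb for Id1, 60.2 kb for Id3, 74.2 kb for Msx2, 151.6 kb for Msx1, 240.1 kb for Id4 and 720.2 kb for Id2. At E9.5 this gave 160 regions per Mb for Id1, 99.6 for Id3, 72.6 for Msx1 and 53.9 for Msx2, all above the median of 32.8 over genes with a region. For Id4 (12.5) and Id2 (11.1) it gave fewer. The order of the genes was the same at E10.5 for the denser 4, with 160, 83.0, 66.0 and 40.4 regions per Mb, respectively, for Id1, Id3, Msx1 and Msx2.

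Sites for other factors were less distinctive than the composite. GGCGCC alone, which the composite contains, was found within 150 bases of the center in 8 of 31 distal E9.5 regions of the 6 genes, against 5.91% of all distal regions, and in 6 of 25 at E10.5, against 4.56%. Around the centers of the 6 start regions of E9.5 it was found in 0, against 24.4% of all promoter-proximal regions, and at E10.5 in 2 of 8, against 24.7%. These windows cover a small part of the wide start regions. Anywhere in the start regions, GGCGCC was found in 5 of 6 at E9.5, against 51.2%, and in 6 of 8 at E10.5, against 49.9%. Its matches per kb there were 0.885 at E9.5, against 0.572, and 0.879 at E10.5, against 0.608. The SP site GGGCGG, also GC-rich, occurred at 0.984 matches per kb in distal E9.5 regions of the 6 genes and at 0.521 per kb in all distal regions, and at 1.47 and 0.366 per kb at E10.5. The SMAD box CAGAC occurred at 2.72 matches per kb in distal E9.5 regions of the 6 genes and at 2.80 per kb in all distal regions. Of the E-boxes, the binding sites of the E proteins that ID proteins capture, CAGCTG occurred at 0.710 and 0.778 per kb and CACCTG at 0.847 and 0.734 per kb. The homeodomain site CAATTA occurred at 0.481 and 0.389 per kb. The PKNOX and MEIS site TGACAG occurred at 0.641 and 0.879 per kb and was found in 18 of 31 distal E9.5 regions of the 6 genes, against 59.1% of all. Within 150 bases of the center, TGACAG was rarer in the distal regions of the 6 genes. It was found there in 2 of 31 at E9.5, against 25.4% of all, and in 2 of 25 at E10.5, against 23.8%. The part of GC content in the counts of GGCGCC and GGGCGG was not tested.

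The other genes of the BMP pathway, 25 ligand, receptor, Smad and antagonist genes, had 37 of 137 E9.5 regions stage-specific (27.0%, 20.3 to 35.0%) and 74 of 178 E10.5 regions (41.6%, 34.6 to 48.9%), and both intervals include the shares of all regions. A composite match was present in the regions of 1 of the 25, the antagonist gene Grem1, in both lists. Among all genes with a region, 0.658% had a match at E9.5 and 0.578% at E10.5. Ligand genes had 11 of 47 E9.5-specific (23.4%) and 33 of 68 E10.5-specific regions (48.5%), with 21 of 30 at Bmp2 and 5 of 8 at Bmp5 at E10.5 and none at Bmp6 and Gdf5 in either list. Receptor genes had 9 of 31 and 27 of 49 (55.1%), with 14 of 19 E10.5 regions at Bmpr1b and 12 of 22 at Acvr2a, and none at Bmpr2 and Acvr2b. Antagonist genes had 3 of 13 and 5 of 18, among them 4 of 6 E10.5 regions of the pseudoreceptor gene Bambi and none at Grem1 and Twsg1.

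The Smad genes had 14 of 46 E9.5-specific and 9 of 43 E10.5-specific regions (20.9%). Smad6, which encodes an inhibitory SMAD, had 6 of 12 E9.5-specific and 0 of 7 E10.5-specific regions, counts that resemble the 4 of 8 and 0 of 7 of Id2. Smad5 had 3 of 5 and 1 of 3, Smad1 had 0 of 1 and 2 of 3, and Smad4 had none of 4 in either list. The E protein genes, whose products ID proteins bind, had 16 of 36 in the earlier list (44.4%) and 7 of 27 in the later. Tcf4 held most of these, with 12 of 22 and 7 of 17, while Tcf12 had 2 of 10 and 0 of 8, and Tcf3 had 2 of 4 and 0 of 2. The remaining Msx gene, Msx3, had 0 of 3 and 0 of 4. These are counts in single lists, and no difference between the gene groups was tested.

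Genes with the most similar counts of regions and stage-specific regions in both lists were named by the summed difference over these 4 counts, with ties broken by the score percentile at the start. For Id1 these were Scd2 and Fosb, with the same counts of 5, 1, 5 and 0, and Ppm1a, with a difference of 1. No gene had the counts of Id2, and Pou3f3, Cyp26b1 and Gm17267 differed by 1. Id3 shared its counts with 5 genes, the first of which were Pfkfb3, Ctif and Tpra1. The counts of Msx1 were not found elsewhere either, and Cuedc1 and Ddit4 differed by 1. For Id4 and Msx2, 107 and 171 genes had the same counts, so that the names at the top of their lists (Map3k4 and H2-D1) carry little information.

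The tissue label was checked at the starts of marker genes. Tbx5, the forelimb gene, and the limb mesenchyme genes Prrx1, Prrx2 and Hand2 had a start region in both lists, although that of Tbx5 stood at percentiles 4.1 and 1.4 only. Of the trunk genes, Pax1, Pax3 and Myf5 had a start region in both lists. The hindlimb genes Tbx4 and Isl1 had one in both lists, and Pitx1 had one at E9.5 only, as did Fgf8, a gene of the apical ridge. Of all protein-coding genes, 65.2% had a start region in the E9.5 list and 62.6% in the E10.5 list. Trunk genes had one in the E10.5 list and hindlimb genes in the E9.5 list. The presence of a start region therefore cannot decide about the tissue label. How much trunk tissue contributed to the regions of the 6 genes was not tested.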

How the data were processed

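ATAC-seq regions of wild-type NMRI embryos were analyzed as 1 list for each of E9.5 and E10.5. The authors aligned reads to mm9 with Bowtie 1.1.0 (reads with 1 best position, up to 2 mismatches), called regions per replicate with MACS 1.4 without a control and combined the 2 replicates per stage with MSPC (stringent p-value 1e-10, weak p-value 1e-06). The deposited score is 10 times −log10 of the best p-value that MACS gave in either replicate. Replicate values and read totals were not used here, so depth is unknown, no test was made, and Wilson intervals (95%) cover counting error only.

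Regions were assigned to the nearest protein-coding start of GENCODE vM1 on NCBIM37, by gene symbol, and called promoter-proximal when the center lay within 2.5 kb of a start. Shared regions overlapped by at least 1 bp. Python 3.11.15, pandas 2.3.3 and numpy 2.4.6 were used, and interval and motif code was tested on simulated data. Motifs were searched on both strands, with palindromes counted once and overlapping motifs counted for each. The 6 genes, the gene lists, motifs and thresholds were chosen with earlier results of these data known. Named for each gene were the start regions, the highest-scoring stage-specific and shared distal regions and the distal region nearest the start, and further regions were named after their values were seen. Pathway genes are given as counts, with up to 4 examples with the largest and smallest stage-specific shares. Alternative overlaps, score filters, distances and sets of starts were tried. Of 4 trunk marker genes, 3 were matched in the annotation.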

Additional observations from a re-analysis of the deposited data

How the results depend on the processing

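Requiring a reciprocal overlap of 50% raised the stage-specific share of the E10.5 regions of the 6 genes from 3.03% to 30.3%, because the pieces of the divided start regions each covered less than 50% of the E9.5 region. With starts of genes of all types, 28 E10.5 regions remained nearest to the 6 genes and the share was 0.00% (3 counts would give 10.7%), since the E10.5-specific region of Id4 lies in a lincRNA gene. With only the upper 50% of the scores of each list, 24 E9.5 and 21 E10.5 regions remained. For the 6 genes together, 42 of 46 values under the alternatives stayed within 1.5 times a count or within the interval of a share. The other 4 did not. Some values could not move, since a promoter distance of 1 kb cannot change region counts or shares where the 2.5 kb clause added 0 regions. With 1 kb, the genes with a start region fell from 6 to 4 at E9.5 and from 6 to 5 at E10.5. Both changes were within 1.5 times and counted as unchanged. For single genes, 168 of 192 values stayed within the same limits. No paired analysis was possible because the replicates were combined into 1 list per stage, and for the same reason no replicate could be left out. Unknown depth limits what the absence of a region from a list says.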
